A study of Mus musculus with 10 samples.

Results

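The genes described here encode the subunits, activators, inhibitor and assembly chaperones of the mouse proteasome, the protease complex that degrades ubiquitin-tagged proteins. They were chosen by symbol, as every gene named Psma, Psmb, Psmc, Psmd, Psme, Psmf or Psmg with a number, leaving out the immunoproteasome subunits Psmb8, Psmb9 and Psmb10, which gave 45 of the 24411 genes in the files. Among the 45 were 8 genes of the 20S alpha ring, 8 of the 20S beta ring, 6 ATPases and 11 non-ATPase subunits of the 19S cap, 3 chaperones that assemble the base of the cap, 4 activators, 1 inhibitor and 4 chaperones that assemble the 20S core.

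RNA was sequenced from microglia, all of them treated with 10 uM EPZ-6438, a small molecule that blocks the histone methyltransferase EZH2, and the series asks whether inhibiting EZH2 counters the activation of neonatal microglia. Primary microglia were given EPZ-6438 with 10 ng/ml lipopolysaccharide (LPS, part of the outer membrane of gram-negative bacteria, sensed through Toll-like receptor 4) (PM_EPZ_LPS, n = 3) or EPZ-6438 alone (PM_EPZ, n = 3), and BV2 cells were given EPZ-6438 with the same LPS dose (BV2_EPZ_LPS, n = 2) or EPZ-6438 alone (BV2_EPZ, n = 2), each for 4 h. Primary cells came from brains of ICR mice aged 3 days, pooled from 12 animals, and were shaken off mixed glial cultures. BV2 is an immortalised mouse microglial line. No group without the inhibitor was analysed here, so every comparison is between cells under the inhibitor. The labels do not say whether replicates were separate cultures, so the p-values reflect the spread among these libraries alone, and that spread may be technical.

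In the proteasome, 2 outer alpha rings gate a barrel whose 2 inner beta rings hold the proteolytic sites: Psmb5 carries the chymotrypsin-like, Psmb6 the caspase-like and Psmb7 the trypsin-like activity. The 19S cap binds ubiquitin chains, removes them and unfolds the substrate with a ring of ATPases, whereas the activators PA28 (Psme1 with Psme2, or Psme3 alone) and PA200 (Psme4) open the barrel without ubiquitin or ATP. In macrophage-lineage cells, interferon induces PA28 alpha and beta together with the immunoproteasome subunits, and the transcription factor NFE2L1 is known to raise constitutive subunits when proteasome activity is short.

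The promoters of the genes on which the results below turn are shown first, for the pair of PA28 genes with the largest rises, for the alpha subunit Psma5 and for the catalytic subunits Psmb5 and Psmb6. Each runs 5′ to 3′ on the strand of its gene, from 230 bases before the annotated start to 20 bases after it, from RefSeq on GRCm38.p6, with matches to 2 motifs in capitals. Those are the core of the antioxidant response element bound by NFE2L1 and NFE2L2, TGACNNNGC, and the core of the interferon-stimulated response element, GAAA, any 2 bases and GAAA, each searched on both strands.
Psme1, chr14:55578264-55578513, plus strand: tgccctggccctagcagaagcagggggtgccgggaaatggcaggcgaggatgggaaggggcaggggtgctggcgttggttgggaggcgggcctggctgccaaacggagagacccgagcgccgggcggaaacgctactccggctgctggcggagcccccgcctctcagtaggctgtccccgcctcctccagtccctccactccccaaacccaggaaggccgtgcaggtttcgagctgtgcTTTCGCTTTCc
Psme2, chr14:55591082-55591331, minus strand: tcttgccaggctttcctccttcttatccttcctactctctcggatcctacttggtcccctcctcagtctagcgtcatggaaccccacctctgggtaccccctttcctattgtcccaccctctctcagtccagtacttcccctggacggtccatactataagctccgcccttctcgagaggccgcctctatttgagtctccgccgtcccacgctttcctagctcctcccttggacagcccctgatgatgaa
Psma5, chr3:108256696-108256945, plus strand: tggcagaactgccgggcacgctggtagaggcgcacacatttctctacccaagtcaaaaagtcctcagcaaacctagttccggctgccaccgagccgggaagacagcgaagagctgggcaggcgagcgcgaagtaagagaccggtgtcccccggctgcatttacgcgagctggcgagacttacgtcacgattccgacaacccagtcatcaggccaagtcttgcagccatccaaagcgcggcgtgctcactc
Psmb5, chr14:54617976-54618225, minus strand: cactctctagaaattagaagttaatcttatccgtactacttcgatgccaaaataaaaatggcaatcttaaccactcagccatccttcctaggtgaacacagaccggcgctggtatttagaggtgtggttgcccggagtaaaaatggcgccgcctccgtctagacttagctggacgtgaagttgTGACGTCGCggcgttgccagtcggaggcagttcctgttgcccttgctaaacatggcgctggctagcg
Psmb6, chr11:70525127-70525376, plus strand: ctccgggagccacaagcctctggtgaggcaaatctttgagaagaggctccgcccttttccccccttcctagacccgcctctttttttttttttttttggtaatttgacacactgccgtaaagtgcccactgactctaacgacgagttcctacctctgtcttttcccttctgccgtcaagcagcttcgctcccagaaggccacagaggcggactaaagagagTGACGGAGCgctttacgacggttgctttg
In Psme1 the capitals mark the interferon-stimulated core on the reverse strand, beginning 9 bases downstream of the start. In Psmb5 and Psmb6 they mark the antioxidant response core, which began 47 and 9 bases upstream of the start. The Psme2 and Psma5 windows held neither core. Psme1 and Psme2 are neighbours on chromosome 14, with 5912 bases between them.

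Promoter windows of 250 bases before to 50 bases after the start were found for 37 of the 45 genes. The antioxidant response core was in the windows of 6 of the 37 (16.2%, against 13.99% of all genes in the table), namely Psmb5, Psmb6, Psmc6, Psmd9, Psmd12 and Psme4. The interferon-stimulated core was in 5 (13.5%, against 3.99% of all genes), namely Psmb3, Psmd4, Psmd9, Psme1 and Psmg4. A CCAAT box on either strand was in 13 (35.1%, against 41.1% of all genes). A match of letters is a description of the window and not a measured binding site.

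Between 2750988 and 3684012 reads per library were counted on genes. Rn45s, the ribosomal RNA precursor, made up 15.7% to 43.7% of these in PM_EPZ_LPS, 40.9% to 51.7% in PM_EPZ, 27.2% to 28.6% in BV2_EPZ_LPS and 27.0% to 30.1% in BV2_EPZ. The library PM_EPZ_LPS replicate 1 stood apart from the other 2 of its group, with a chi-square over degrees of freedom of 11.7 and 14.4 against them, compared with 2.61 between those 2. The 16 microglial markers summed to 3200 to 3768 CPM (counts per 1e6, on scaled library sizes) in PM_EPZ_LPS, 3282 to 3795 in PM_EPZ, 2360 to 2508 in BV2_EPZ_LPS and 2384 to 2539 in BV2_EPZ. Of the defining markers, P2ry12 stayed at or under 6.95 CPM in every library, Cx3cr1 was at 2.81 to 5.37 CPM in the BV2 libraries and Sall1 was at 0 in all 4 of them. Other microglial markers went the opposite way: Tmem119 was at 1.18 to 2.82 CPM in the primary libraries and 9.86 to 18.1 CPM in the BV2 libraries, C1qb was at 190.1 to 380.2 CPM in the primary and 436 to 480.3 CPM in the BV2 libraries, and Tyrobp was at 258 to 339 CPM in the primary and 365 to 425 CPM in the BV2 libraries. The 10 astrocyte markers summed to 885 to 1558 CPM in PM_EPZ_LPS and 872 to 1458 CPM in PM_EPZ, ranges that overlap. Gfap was the largest part, and single markers differed: Aqp4 was at 217 to 343 CPM in PM_EPZ_LPS and 133 to 178 in PM_EPZ. Gja1 (47.4 to 70.5 against 73.9 to 97.7) and Sox9 (6.70 to 15.7 against 21.1 to 47.0) went down. Across the primary libraries, oligodendrocyte lineage markers summed to 202 to 250 CPM, neuron markers to 101 to 123 and fibroblast markers to 86.1 to 332. In bulk RNA, fewer cells of a type and less RNA per cell cannot be told apart.

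Much of the proteasome rose with LPS in primary microglia. Of the 43 genes that passed the filter on low counts, 28 rose and none fell at an adjusted p under 0.05, beside 39.2% of all tested genes called in either direction, 21.4% called higher and 17.8% called lower. By unadjusted p under 0.05 the counts were 33 higher and none lower, and DESeq2 likewise called none lower. The median log2 fold change of the 43 was 0.59, against -0.03 over all 10664 genes tested, and all 43 estimates were above 0, of which those of Psma7, Psmb3, Psmc5, Psmd1, Psmd9, Psmg1 and Psmg4, none of them called, lay below 0 under upper-quartile scaling. For 33 of the 43 the LPS and no-LPS libraries did not overlap, beside 49.0% of all tested genes. The proteasome genes summed to 3342, 3808 and 3848 CPM in PM_EPZ_LPS, against 2009.8, 1999 and 2147 CPM in PM_EPZ, a ratio of means of 1.79. Every LPS library lay above every library without LPS, and the lowest of the LPS libraries was the one that stood apart. Without it, 33 genes were called higher.

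**Figure D1:**
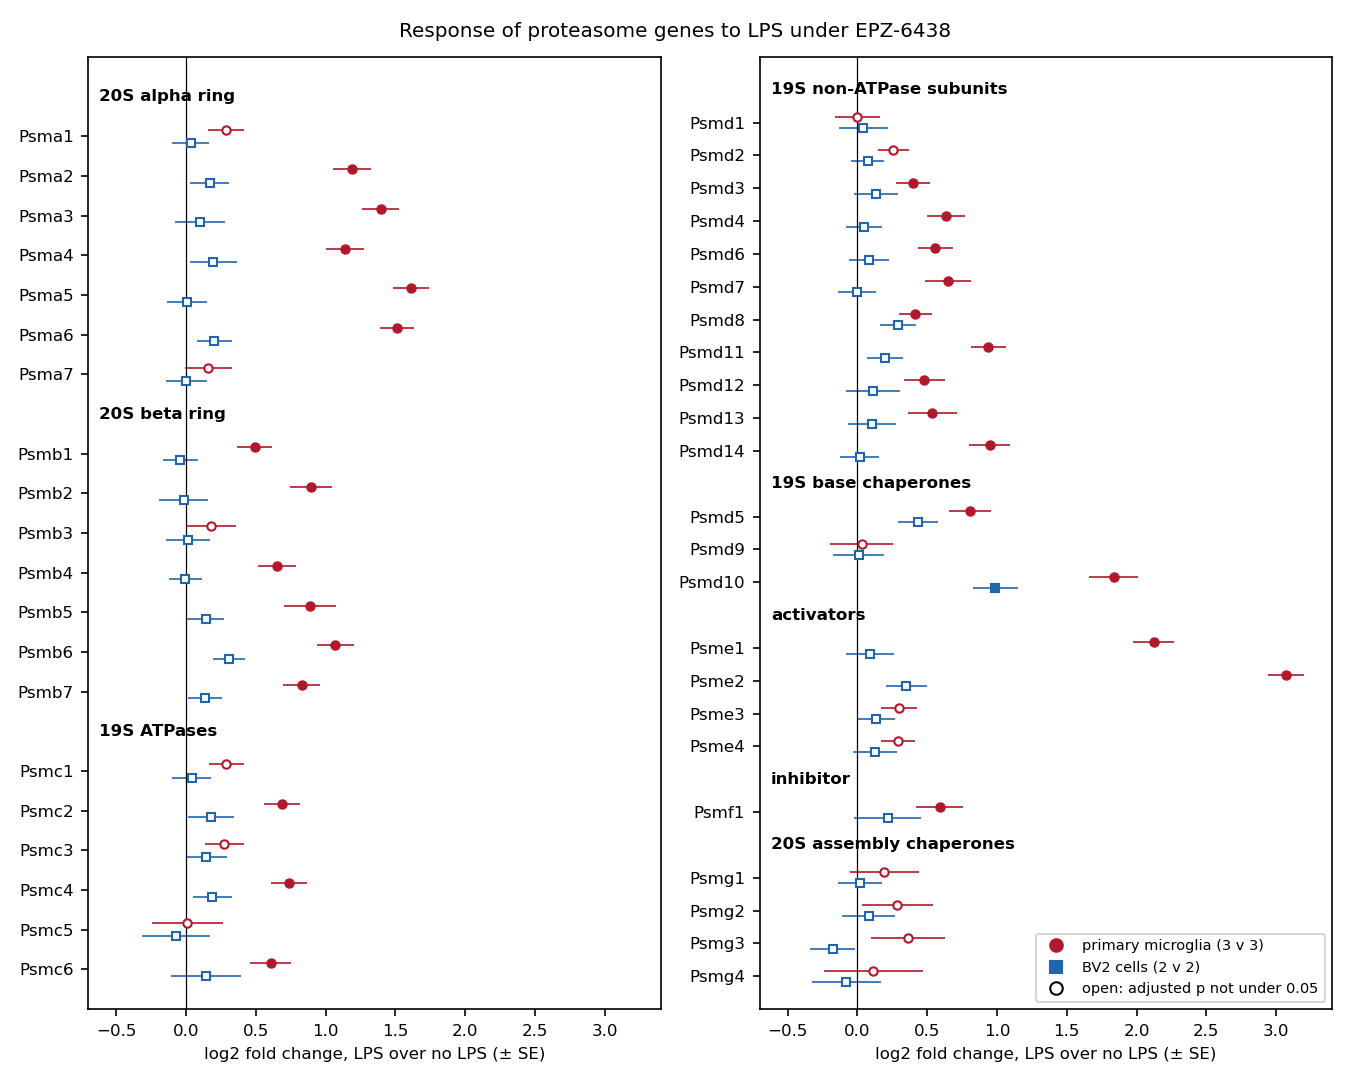
Log2 fold change of each tested proteasome gene with LPS over without LPS (horizontal axis, ± SE), in primary microglia (3 libraries with LPS and 3 without) and in BV2 cells (2 and 2), with genes grouped by role down the page. In primary microglia all 43 estimates lie above 0 (7 of them, none called, lie below 0 under upper-quartile scaling) and Psme2 reaches 3.07, while in BV2 cells Psmd10, at 0.99, is the one gene that passed the test.

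The changes were largest among the activators, where the PA28 alpha and beta pair rose and the other 2 genes did not pass the test. Psme2, the beta subunit of PA28, stood at 346, 398 and 385 CPM in PM_EPZ_LPS, against 44.6, 40.1 and 48.2 CPM in PM_EPZ. This was a rise of 3.07 ± 0.13 on the log2 scale (adjusted p = 2.1e-13), an 8.40-fold change. Psme1, the alpha subunit, stood at 109, 135 and 136 CPM in PM_EPZ_LPS, against 25.1, 28.2 and 33.1 CPM in PM_EPZ, and rose by 2.12 ± 0.15 (adjusted p = 5.8e-10). For both genes the groups lay far apart, with the lowest LPS library several times above the highest library without LPS. Psme2b, a near copy of Psme2 that the rule does not take, had 10.97, 8.93 and 11.9 CPM in PM_EPZ_LPS and 0.375, 1.23 and 2.11 CPM in PM_EPZ, and the counts of both are uncertain where a read fits either. Psme3, the nuclear PA28 gamma, had 68.6, 72.7 and 78.5 CPM in PM_EPZ_LPS and 55.4, 58.9 and 63.0 CPM in PM_EPZ, a log2 difference of 0.30 ± 0.13 that did not pass (adjusted p = 0.069). Psme4, which encodes PA200, had 109, 104 and 127 CPM in PM_EPZ_LPS and 87.3, 93.6 and 94.3 CPM in PM_EPZ (0.29 ± 0.12, adjusted p = 0.065). The libraries of Psme3 and Psme4 did not overlap between the groups, and each gene passed the test in some alternatives. Psme3 passed in 2 of 15, without PM_EPZ_LPS replicate 1 (adjusted p = 0.021) and with structural RNA genes left out (adjusted p = 0.044). Psme4 passed in 5 of 15, among them without PM_EPZ_LPS replicate 1 (adjusted p = 0.019), without PM_EPZ_LPS replicate 2 (adjusted p = 0.047) and with the transcript length trend taken out, where its log2 difference was 0.50 (adjusted p = 0.0029). Under upper-quartile scaling Psme3 stood at 0.09 and Psme4 at 0.08, and neither passed.

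In the alpha ring, which gates the barrel, 5 of the 7 tested genes rose, with a median log2 fold change of 1.19 over the 7. Psma5 had 97.9, 92.5 and 92.1 CPM in PM_EPZ_LPS, against 28.8, 31.1 and 31.7 CPM in PM_EPZ, and rose by 1.61 ± 0.13 (adjusted p = 6.3e-09). Psma6 had 148, 165 and 175 CPM in PM_EPZ_LPS, against 55.4, 55.2 and 59.1 CPM in PM_EPZ, and rose by 1.51 ± 0.12 (adjusted p = 5.8e-09). Psma3 had 122, 119 and 137 CPM in PM_EPZ_LPS, against 45.7, 53.6 and 44.0 CPM in PM_EPZ, and rose by 1.39 ± 0.13 (adjusted p = 4.3e-08). In all 3 genes each LPS library was well above each library without LPS. Psma2 and Psma4 rose by 1.19 and 1.14. Within the same ring, Psma1 (0.29 ± 0.13, adjusted p = 0.093) and Psma7 (0.16 ± 0.17, adjusted p = 0.48) did not pass. The eighth alpha gene, Psma8, which encodes a subunit known from testis, had at most 4 counts in any library and was not tested.

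In the beta ring 6 of the 7 tested genes rose, among them all 3 constitutive catalytic subunits, with a median of 0.83 over the 7. Psmb6, with the caspase-like site, had 151, 199.98 and 192 CPM in PM_EPZ_LPS, against 78.7, 86.3 and 91.8 CPM in PM_EPZ, and rose by 1.07 ± 0.13 (adjusted p = 1.7e-06). Psmb5, with the chymotrypsin-like site, had 32.1, 50.4 and 39.1 CPM in PM_EPZ_LPS, against 19.1, 20.8 and 25.3 CPM in PM_EPZ, and rose by 0.89 ± 0.19 (adjusted p = 0.00089). Psmb7, with the trypsin-like site, had 82.7, 101 and 100.4 CPM in PM_EPZ_LPS, against 52.1, 48.2 and 58.1 CPM in PM_EPZ, and rose by 0.83 ± 0.13 (adjusted p = 5.2e-05). The groups did not overlap for any of the 3. Of the structural beta subunits, Psmb2, Psmb4 and Psmb1 rose by 0.90, 0.65 and 0.49, and Psmb3 did not pass (0.18, adjusted p = 0.46). Psmb11, known as the catalytic subunit of the thymus proteasome, had 1 count over the 10 libraries and was not tested.

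Changes in the 19S cap were smaller in median than those in the alpha and beta rings. Among the ATPases 3 of 6 rose, Psmc4 by 0.74, Psmc2 by 0.69 and Psmc6 by 0.61, and the median over the 6 was 0.45. Psmc1, Psmc3 and Psmc5 did not pass, at 0.29, 0.28 and 0.01. Of the 11 non-ATPase subunits 9 rose, with a median of 0.54. The largest of these were Psmd14, the deubiquitinase of the lid, at 0.95 ± 0.15, and Psmd11, a lid subunit, at 0.94 ± 0.13. Psmd7, the partner of Psmd14, rose by 0.65, and Psmd4, a ubiquitin receptor, rose by 0.63. Psmd6, Psmd13, Psmd12, Psmd8 and Psmd3 rose by 0.40 to 0.56. The scaffold subunits Psmd2 (0.26, adjusted p = 0.070) and Psmd1 (0.00, adjusted p = 0.998) were the 2 that did not pass. Psmd1 had 56.8, 41.8 and 45.1 CPM in PM_EPZ_LPS and 50.2, 53.1 and 38.7 CPM in PM_EPZ, and the groups overlapped.

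Among the helpers, Psmd10 changed most. Psmd10, which encodes gankyrin, a chaperone of the cap's base, had 46.6, 59.3 and 56.7 CPM in PM_EPZ_LPS, against 12.4, 15.9 and 16.9 CPM in PM_EPZ, and rose by 1.84 ± 0.17 (adjusted p = 5.9e-08). All LPS libraries were far above all libraries without LPS. The base chaperone Psmd5 rose by 0.81 and the base chaperone Psmd9 did not pass (0.03). Psmf1, which encodes the proteasome inhibitor PI31, had 29.0, 30.3 and 28.9 CPM in PM_EPZ_LPS, against 18.7, 20.4 and 19.002 CPM in PM_EPZ, and rose by 0.59 ± 0.17 (adjusted p = 0.010). None of the 4 chaperones that assemble the 20S core passed: Psmg3, Psmg2, Psmg1 and Psmg4 had log2 differences of 0.36, 0.29, 0.19 and 0.12, at levels of 3.75 to 18.2 CPM in the primary libraries. No Psmg gene reached an unadjusted p under 0.05, and none was called under any of the 15 alternatives run.

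**Figure D2:**
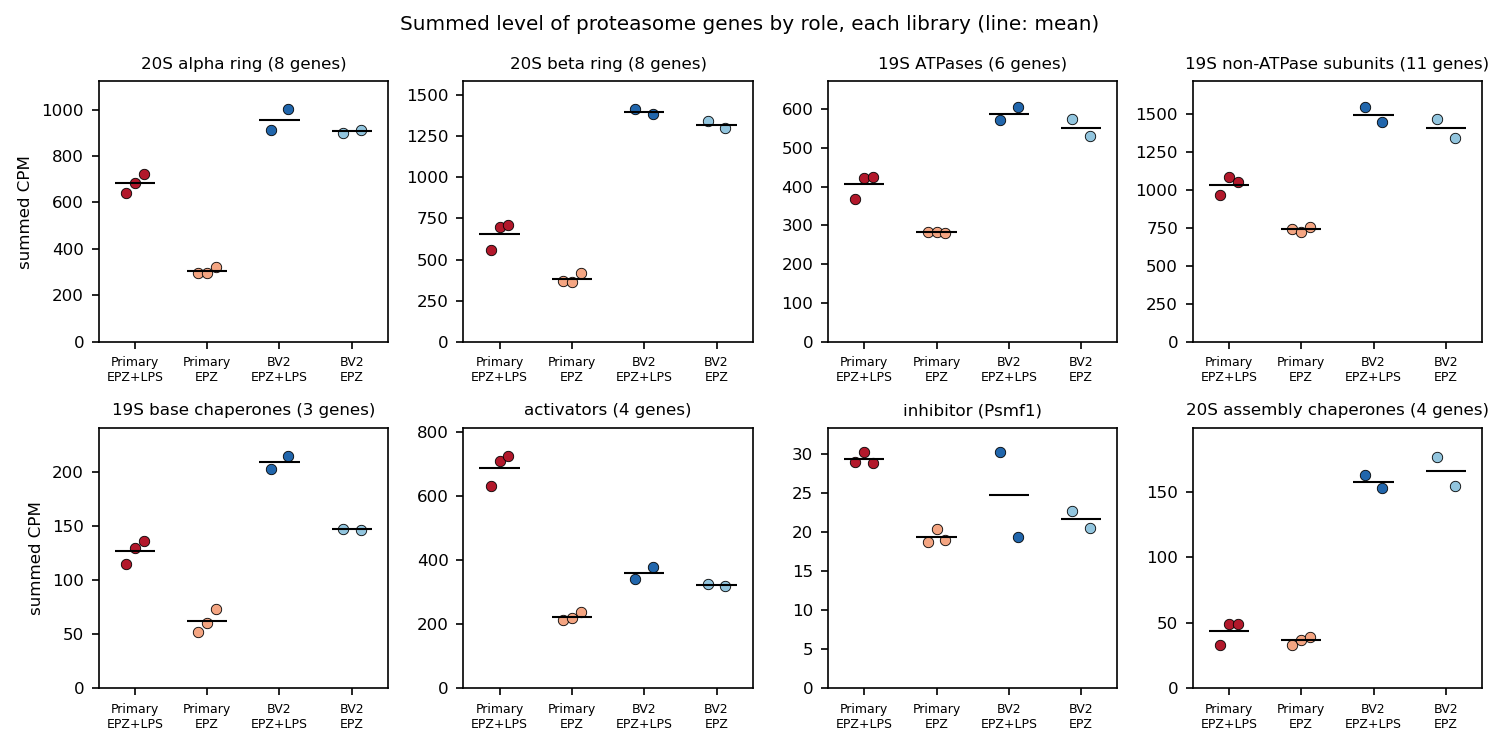
Summed CPM of the proteasome genes of each role in every library (points, with a line at the group mean), for the 4 groups. The activators sum to 631 to 727 CPM in PM_EPZ_LPS and 212 to 239 CPM in PM_EPZ, while the 20S assembly chaperones lie at 32.9 to 48.8 CPM in PM_EPZ_LPS and 33.0 to 39.4 CPM in PM_EPZ and overlap.

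The size of the shift depended on the scaling of the libraries. Under upper-quartile scaling the median of all genes moved to -0.23, with 1650 genes called higher and 2985 lower in all (2285 and 1893 under the scaling used here), and 22 proteasome genes rose, with a median of 0.38 over the 43. The share of Rn45s was lower in PM_EPZ_LPS replicates 2 and 3 than in every PM_EPZ library, and leaving out it and other structural RNA genes gave 32 genes called higher.

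In BV2 cells 1 of the 43 tested genes rose with LPS and none fell, beside 5.20% of all tested genes called, 3.69% higher and 1.51% lower. Unadjusted p under 0.05 was reached by 5 genes, and DESeq2 called 1 higher and none lower. The gene was Psmd10, at 76.5 and 90.2 CPM in BV2_EPZ_LPS, against 44.0 and 42.3 CPM in BV2_EPZ, a rise of 0.99 ± 0.16 (adjusted p = 0.0024). Both LPS libraries were above both libraries without LPS. The median log2 fold change of the 43 was 0.10, against -0.01 over all 9321 genes tested. For 14 of the 43 the groups did not overlap, beside 42.1% of all tested genes. Leaving out BV2_EPZ_LPS replicate 1 gave 3 genes called higher, with Psmc6 and Psme2 added, and leaving out BV2_EPZ_LPS replicate 2 also gave 3, with Psmb6 and Psmd5 added.

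The activators and catalytic subunits that rose in primary cells had small estimates in BV2 cells. Psme2 had 111 and 128 CPM in BV2_EPZ_LPS and 100.4 and 91.2 CPM in BV2_EPZ (0.35 ± 0.14, adjusted p = 0.28). Psme1 had 39.3 and 39.4 CPM in BV2_EPZ_LPS and 38.7 and 37.0 CPM in BV2_EPZ (0.09 ± 0.17, adjusted p = 0.90). Neither gene's groups overlapped, but the gaps were small. Psme3 had 108 and 110.4 CPM in BV2_EPZ_LPS and 102 and 101 CPM in BV2_EPZ, and Psme4 had 83.3 and 102 CPM in BV2_EPZ_LPS and 83.6 and 90.9 CPM in BV2_EPZ, where the groups overlapped. Psmb6 had 423 and 383 CPM in BV2_EPZ_LPS and 334 and 333 CPM in BV2_EPZ (0.31 ± 0.11, adjusted p = 0.21). Psmb5 had 148 and 132 CPM in BV2_EPZ_LPS and 131 and 128 CPM in BV2_EPZ, and Psmb7 had 265 and 294 CPM in BV2_EPZ_LPS and 263 and 258 CPM in BV2_EPZ, each with a log2 difference of 0.14. In these 2 genes the LPS libraries lay just above those without LPS.

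**Figure D3:**
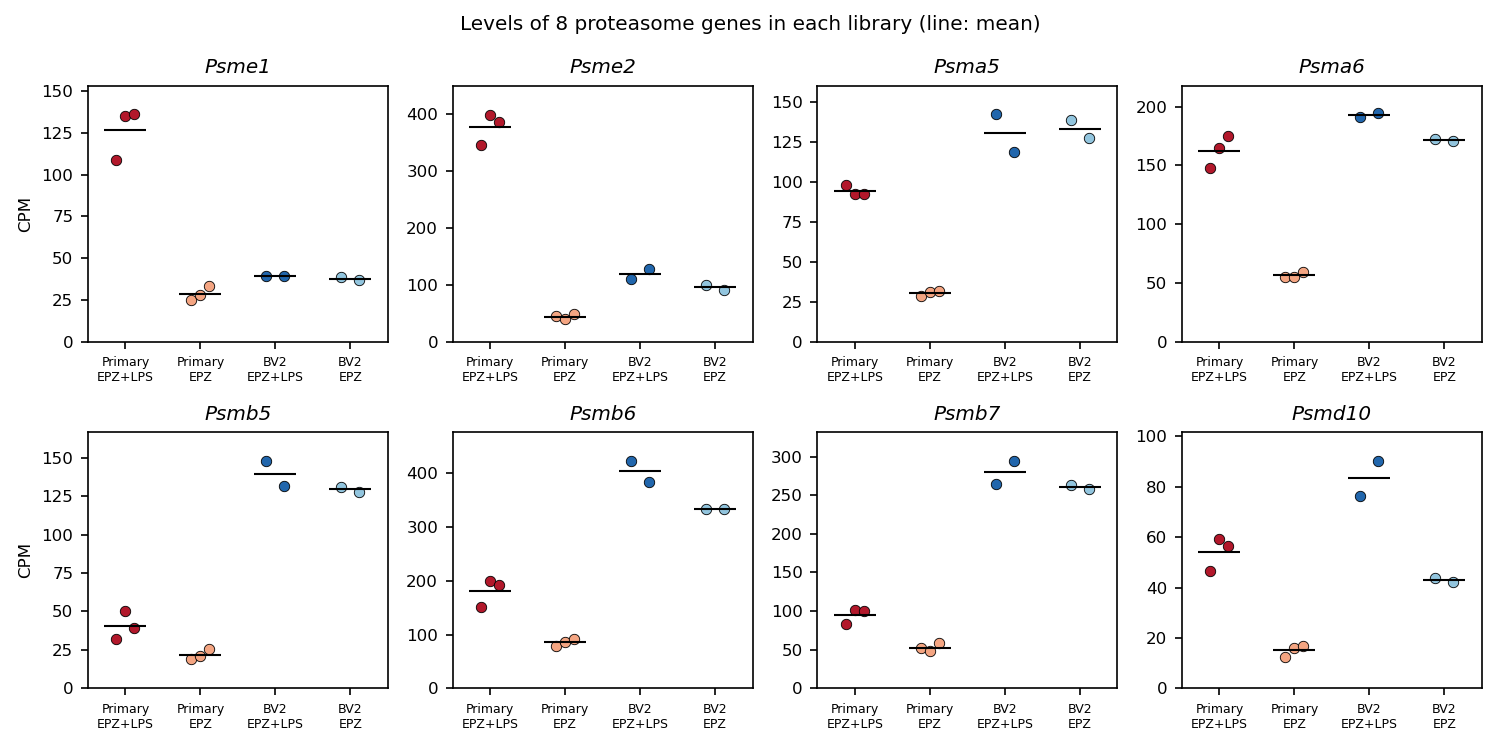
CPM of Psme1, Psme2, Psma5, Psma6, Psmb5, Psmb6, Psmb7 and Psmd10 in every library (points, with a line at the group mean), for the 4 groups, each vertical axis starting at 0. Psme2 stands at 346 to 398 CPM in PM_EPZ_LPS and at 40.1 to 48.2 CPM in PM_EPZ, against 111 to 128 CPM in BV2_EPZ_LPS and 91.2 to 100.4 CPM in BV2_EPZ.

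The difference between the 2 responses was itself tested in 1 fit of all 10 libraries, which share their samples with the comparisons above. The response was larger in primary microglia than in BV2 cells for 18 of the 43 genes and smaller for none, beside 12.2% of all tested genes called, 8.65% higher and 3.54% lower. By unadjusted p under 0.05 there were 21, and DESeq2 called 13 higher and none lower. The median difference was 0.52, against 0.04 over all 11626 genes tested. The activators Psme2 (2.77 ± 0.20, adjusted p = 1.9e-11) and Psme1 (2.08 ± 0.23, adjusted p = 1.3e-07) differed most. Next came the alpha subunits Psma5 (1.65 ± 0.20), Psma6 (1.35 ± 0.18), Psma3 (1.34 ± 0.22) and Psma2 (1.07 ± 0.21). By role, the genes called were 5 of 7 in the alpha ring, 6 of 7 in the beta ring, 4 of 11 non-ATPase subunits, 1 of 3 base chaperones and 2 of 4 activators. No ATPase and none of the 4 Psmg chaperones of the 20S core was called, and Psmf1 was not. Pomp, the maturation protein of the 20S core, is counted with the partners below and was called (0.91 ± 0.22, adjusted p = 0.0051). Psmc4, an ATPase with a difference of 0.60 (adjusted p = 0.051), passed in 5 of the 18 alternatives.

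The catalytic subunits differed by 0.81 ± 0.19 for Psmb6 (adjusted p = 0.0033), 0.79 ± 0.24 for Psmb5 (adjusted p = 0.025) and 0.74 ± 0.19 for Psmb7 (adjusted p = 0.0085). Psmb5 lost its call in 11 of the 18 alternatives and Psmb7 in 3, while Psmb6 kept it in all 18. Psmd10, which rose in both cell types, differed by 0.90 ± 0.25 (adjusted p = 0.013) and lost its call in 5. The 11 genes called in all 18 alternatives were Psma2, Psma3, Psma4, Psma5, Psma6, Psmb2, Psmb6, Psmd11, Psmd14, Psme1 and Psme2. The count fell to 11 without PM_EPZ replicate 1 and to 11 under upper-quartile scaling, where the median of all genes was -0.15 and 723 genes were called higher and 668 lower in all, against 1006 and 412 under the scaling used here. It was 12 to 20 without any other single library.

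Without LPS, primary microglia held lower levels of proteasome mRNA than BV2 cells. Of the 43 genes 39 were lower in PM_EPZ and none was higher, beside 74.1% of all tested genes called, 32.5% lower and 41.5% higher. The PM_EPZ and BV2_EPZ libraries did not overlap for 40 of the 43, beside 84.1% of all tested genes. By unadjusted p under 0.05 there were likewise 39, and DESeq2 called 38 lower and none higher. The median log2 difference was -1.42, against 0.23 over all genes. The proteasome genes summed to 2052 ± 82.4 CPM in PM_EPZ (SD, n = 3) and 4841 ± 163 CPM in BV2_EPZ (SD, n = 2). The same PM_EPZ libraries are the ones the primary LPS response is measured from.

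Before any correction for transcript length, Psmb5, Psmg1, Psmg3 and Psmb7 had the largest differences. Psmb5 had 19.1, 20.8 and 25.3 CPM in PM_EPZ, against 131 and 128 CPM in BV2_EPZ, a log2 difference of -2.57 ± 0.17 (adjusted p = 3.4e-13). Psmb7 (-2.30 ± 0.14), Psma5 (-2.12 ± 0.14) and Psmb6 (-1.96 ± 0.13) followed the same direction. Psmg1 had 9.74, 9.40 and 9.15 CPM in PM_EPZ, against 58.9 and 49.9 CPM in BV2_EPZ (-2.53 ± 0.20, adjusted p = 1.1e-11). Psmg3 had 7.12, 7.77 and 12.0 CPM in PM_EPZ, against 51.8 and 48.2 CPM in BV2_EPZ (-2.47 ± 0.22, adjusted p = 9.3e-11). For these genes every primary library was several times below every BV2 library. The activator Psme2 was lower by a smaller amount (-1.11 ± 0.14), and so was Psme3 (-0.78 ± 0.14). Psme1 was at -0.39 ± 0.17 (adjusted p = 0.043), and its call was lost in 10 of the 18 alternatives, for example without PM_EPZ replicate 1 (-0.28, adjusted p = 0.22). Psmd1, Psmd12, Psme4 and Psmf1 did not pass, at 0.11, 0.04, 0.07 and -0.16.

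Transcript length moved with this comparison. Levels over all genes went up with transcript length in the primary libraries and down in the BV2 libraries. For each further factor of 2 in length, the log2 slopes were 0.30 to 0.39 in PM_EPZ and 0.10 to 0.31 in PM_EPZ_LPS. They were -0.34 to -0.28 in the BV2 libraries. The 43 tested proteasome genes had a median transcript of 1440 bases, against 3084 bases over 11728 expressed genes. With each library's length trend taken out, 29 genes were lower in PM_EPZ and 3 were higher, and the median difference was -0.69. Such a correction also removes any difference between the cells that goes with length for other reasons. Under it Psme1 turned round to 0.56 (adjusted p = 0.0033), Psme2 stood at -0.06 (adjusted p = 0.69), Psme4 became lower at -0.75 (adjusted p = 0.00012), and Psmb2 and Psmd12 were called higher. The order of the genes changed too: Psmd11 was then the furthest below (-1.57), followed by Psmg1 (-1.53), Psmd5 (-1.48), Psmb5 (-1.47), Psmb7 (-1.38) and Psmg3 (-1.36). Psma5 stood at -1.25, Psmb6 at -0.76 and Psmg2 at -0.69, all still called lower, and Psmg4 was no longer called (-0.38, adjusted p = 0.32). In the LPS response of primary microglia the same correction gave 30 genes called higher, with a median of 0.49 against 0.59 without it. For the difference of responses it gave 14 genes called higher against 18, with a median of 0.43 against 0.52. The 6 proliferation markers also moved with the comparison, summing to 29.8 to 40.5 CPM in PM_EPZ and 707 to 790 CPM in BV2_EPZ, and their part in the result was not tested. The astrocyte markers, at 872 to 1458 CPM in PM_EPZ and 41.6 to 43.0 CPM in BV2_EPZ, moved the other way, and their part was not tested either. The BV2_EPZ sum was almost all Aldoc, at 41.6 to 42.7 CPM, against 20.8 to 32.7 CPM in PM_EPZ.

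**Figure D4:**
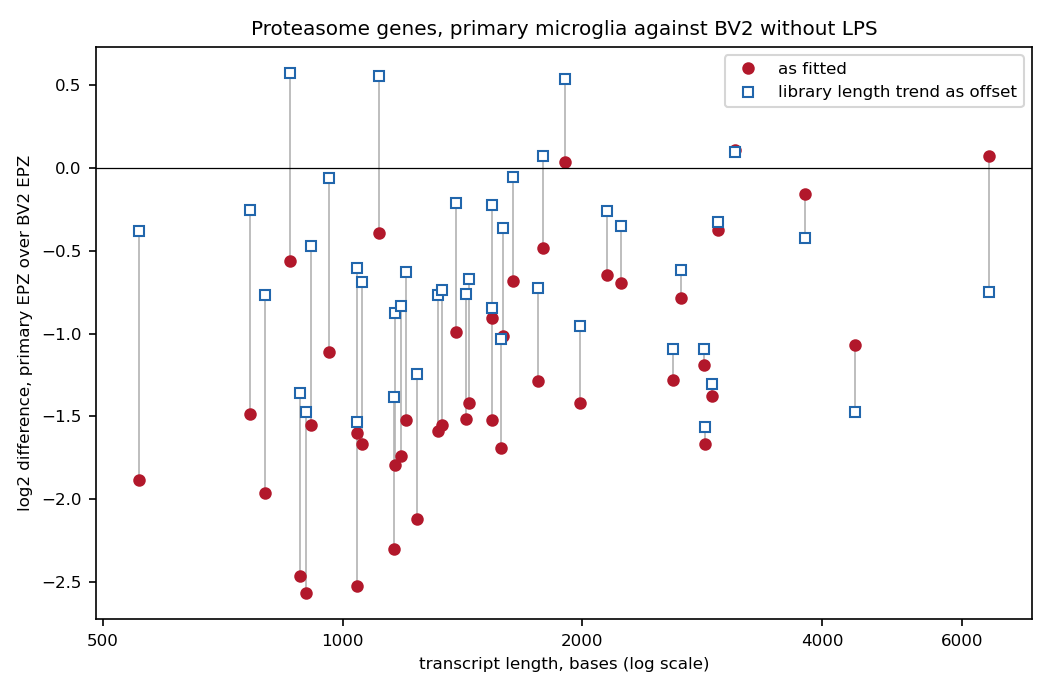
Log2 difference of each tested proteasome gene between primary microglia and BV2 cells without LPS (vertical axis, PM_EPZ over BV2_EPZ) against transcript length in bases (horizontal log axis), before and after the length trend of each library was taken out. Before the correction the median is -1.42 and 39 genes are called lower, and after it the median is -0.69 and 29 are called lower.

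For most of the 43 tested genes, primary cells with LPS still had a lower mean than BV2 cells without LPS. The mean in PM_EPZ_LPS was under that in BV2_EPZ for 33 of the 43 genes, and the mean in PM_EPZ was under it for 40. For 5 genes, Psmb2, Psmd12, Psme1, Psme2 and Psme4, every PM_EPZ_LPS library was above every BV2 library. These counts were not tested, were not corrected for transcript length and were not taken over all genes, so no share stands beside them. Without LPS, the 2 cell types did not overlap, in either direction, for 84.1% of all tested genes.

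Levels of different genes were compared per length, as mean CPM per kilobase of transcript, as a description with no test. Psme2 was the highest of the tested proteasome genes in PM_EPZ_LPS, at 391 CPM per kilobase, while Psmb6 was highest in PM_EPZ at 107, in BV2_EPZ_LPS at 505 and in BV2_EPZ at 418. The lowest was Psmd9 in PM_EPZ_LPS at 5.54, and Psmf1 in PM_EPZ at 5.09, in BV2_EPZ_LPS at 6.52 and in BV2_EPZ at 5.68. The highest genes have short transcripts (Psmb6 798 and Psme2 962 bases) and the lowest longer ones (Psmd9 2597 and Psmf1 3809). Over all genes, levels did not grow in proportion to length, with slopes of 0.10 to 0.39 in primary and -0.34 to -0.28 in BV2 libraries. Division by length may therefore favour short transcripts, more so in BV2 cells. The ratio of Psme2 to Psme1 per length, whose products form PA28 together, was 3.27 to 3.68 in PM_EPZ_LPS and 1.64 to 2.05 in PM_EPZ, without overlap. It was 3.26 to 3.74 in BV2_EPZ_LPS and 2.85 to 3.00 in BV2_EPZ, also without overlap.

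The immunoproteasome subunits replace the catalytic subunits in the barrel and are given as neighbours, outside the counts above. Psmb9 rose by 3.90 ± 0.21, Psmb10 by 2.92 ± 0.15 and Psmb8 by 2.86 ± 0.28 with LPS in primary microglia, beside 21.4% of all tested genes called higher. None of the 3 passed in BV2 cells (-0.38, 0.14 and -0.42), beside 5.20% of all tested genes called. Psmb10, which takes the place of Psmb7, had 169, 207 and 199 CPM in PM_EPZ_LPS, against 31.1, 22.9 and 21.1 CPM in PM_EPZ. Per length, Psmb10 stood at 1.76 to 1.81 times the level of Psmb7 in PM_EPZ_LPS and at 0.322 to 0.528 times in PM_EPZ. Psmb9 stood at 0.268 to 0.275 times the level of Psmb6 in PM_EPZ_LPS and at 0.0252 to 0.0452 times in PM_EPZ. All 3 immunoproteasome genes were lower in PM_EPZ than in BV2_EPZ, by log2 differences of -1.77 to -1.49, beside 32.5% of all tested genes called lower. These differences were not corrected for transcript length, and the 3 transcripts have 1311 to 1628 bases. Psmb8 had 10, 5 and 13 counts in the PM_EPZ libraries.

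Partners of the proteasome moved in both directions in primary microglia with LPS. Of 9 tested partners 6 rose and 1 fell, beside 21.4% of all tested genes called higher and 17.8% lower, with a median of 0.69. The largest rises were those of Pomp, the maturation protein of the 20S core, at 0.94 ± 0.14, Shfm1, a small subunit of the cap, at 0.77 ± 0.14, and Txnl1, a thioredoxin bound to the cap, at 0.74 ± 0.13. Zfand2a, an arsenite-inducible partner of the cap, had 36.4, 42.7 and 38.3 CPM in PM_EPZ_LPS, against 86.9, 85.9 and 102 CPM in PM_EPZ, and fell (-1.24 ± 0.13, adjusted p = 3.9e-07). No partner of 9 passed in BV2 cells, beside the background of 5.20% given above. The difference of responses was higher for 4 of the 9 partners, beside 8.65% of all tested genes. It was lower for 1, Zfand2a, beside 3.54% of all tested genes.

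Genes that regulate the transcription of subunits were called in both cell types. In primary microglia 4 of 9 rose and 2 fell, beside 21.4% of all tested genes called higher and 17.8% lower, with a median of 0.52. Nfe2l2, which encodes NRF2, had 346, 375 and 395 CPM in PM_EPZ_LPS, against 135, 139.8 and 167 CPM in PM_EPZ (1.32 ± 0.12, adjusted p = 2.4e-08), and Stat3 and Nfyc rose by 0.90 and 0.60. The fourth was Nfe2l1, at 0.52. The 2 that fell were Foxo4 (-1.46 ± 0.26) and Ddi2, the protease that activates NFE2L1 (-1.28 ± 0.28). In BV2 cells 3 of 8 rose and none fell, beside 5.20% of all tested genes called and 3.69% called higher, with a median of 0.38. Nfe2l2 had 176 and 199 CPM in BV2_EPZ_LPS, against 87.3 and 82.9 CPM in BV2_EPZ (1.18 ± 0.14, adjusted p = 0.00018). Nfe2l1 (0.67 ± 0.18, adjusted p = 0.0498) and Stat3 (0.55 ± 0.14, adjusted p = 0.046) were near the threshold. For none of the 9 regulators did the difference of responses pass at an adjusted p under 0.05, beside 12.2% of all tested genes called. For Nfe2l2 the difference was 0.19 ± 0.19 (adjusted p = 0.64).

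Few ubiquitin genes passed the test, while the shuttles that carry ubiquitin-tagged proteins to the proteasome held 5 rises and 1 fall in primary microglia. There, 1 of 5 tested ubiquitin genes rose and none fell, beside 21.4% of all tested genes called higher and 17.8% lower. The gene was Uba6, which encodes a ubiquitin-activating enzyme, at 0.85 ± 0.14. In BV2 cells none of 4 passed, beside 5.20% of all tested genes called. Of 11 shuttles and p97 cofactors 5 rose and 1 fell in primary microglia, beside 21.4% of all tested genes called higher and 17.8% lower, with a median of 0.28. Sqstm1, which encodes the autophagy receptor p62, had 1179, 1356 and 1107 CPM in PM_EPZ_LPS, against 424, 459 and 452 CPM in PM_EPZ (1.44 ± 0.11, adjusted p = 2.6e-09). It also rose in BV2 cells, with 248 and 212 CPM in BV2_EPZ_LPS, against 113 and 107 CPM in BV2_EPZ (1.10 ± 0.13, adjusted p = 0.00022). Sqstm1 was the only one of the 11 to pass there, beside 5.20% of all tested genes called. The p97 cofactors Ufd1l and Nploc4 rose by 0.74 and 0.68 in primary microglia, and the shuttle Ubqln2 fell (-1.03 ± 0.24, adjusted p = 0.0018).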

How the data were processed

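Ribosomal RNA was removed, directional libraries were made and read pairs were sequenced, per the labels' protocols. The authors deposited raw read counts for each gene symbol, in 3 strand columns. The submitters' processing notes name CASAVA 1.8.2, Trimmomatic 0.33, STAR 2.5.1, the mm10 build and DESeq2 without a version. The sources used here do not give the gene annotation.

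The reverse-strand column was used, and the opposite column held 0.682% to 2.21% of stranded gene reads. Library sizes and tests excluded entries naming no gene, 70.4% to 79.5% of reads. Multimapping reads, 7.64% to 11.8%, are among them, so genes with near-identical copies may be undercounted. Where a library had 0 counts, its limit is 3 counts (0.814 to 1.09 CPM on unscaled library sizes), covering counting error only.

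Counts were tested in R 4.3.3 with edgeR 4.0.16 (robust quasi-likelihood F test, TMM normalization, filterByExpr with a minimum count of 10 and a minimum total of 15, Benjamini-Hochberg over all genes tested). Genes with an adjusted p under 0.05 were called, and all adjusted p-values printed for genes are from this test unless DESeq2 is named. Each LPS response was fitted within its cell type, and the difference of responses and the comparison of cell types in a fit of all 10 libraries. Log2 fold changes are given ± SE. CPM levels use TMM-scaled library sizes. Transcript lengths came from GENCODE and promoters from RefSeq, and 98.5% of genes had a length. The tests were also run on simulated counts, with the same spread for every gene and without the differences in make-up among libraries described above. That run therefore cannot judge the scaling or the error rate in these data.

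Alternatives were DESeq2 1.42.0, its size factors, upper-quartile scaling, no filter, structural RNA genes left out, unstranded counts, a transcript length trend as an offset (lowess span 0.3), the replicate block, a fit of all libraries and leaving out each library. Genes picked by rule for values of single libraries were the catalytic subunits, the activators, the 6 called genes with the largest rise or fall in a comparison and the extremes per length. Those values are not printed in every comparison, and none are printed for Psma2 and Psmd9. The few others given with values of single libraries were chosen after their values were seen. The members, gene lists and tests were chosen with earlier results of these data known. Protein sequences are not shown.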

Additional observations from a re-analysis of the deposited data

Results flagged for a closer look

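For 18 of the 43 tested proteasome genes the LPS response differed between the cell types by the interaction test over all 10 libraries. Each had the larger response in primary microglia, beside 12.2% of all tested genes called, 8.65% higher and 3.54% lower. Of these calls, 11 held in all 18 alternatives and 7 were lost in some. The losses were in 14 for Psmb1, 12 each for Psmd4 and Psmd7, 11 for Psmb5, 8 for Psmb4, 5 for Psmd10 and 3 for Psmb7. The log2 differences of the responses, primary minus BV2, were 2.77 for Psme2 and 2.08 for Psme1 among the activators. In the alpha ring they were 1.65 for Psma5, 1.35 for Psma6, 1.34 for Psma3, 1.07 for Psma2 and 0.99 for Psma4. In the beta ring they were 0.96 for Psmb2, 0.81 for Psmb6, 0.79 for Psmb5, 0.74 for Psmb7, 0.70 for Psmb4 and 0.58 for Psmb1. In the 19S cap they were 0.98 for Psmd14, 0.79 for Psmd11, 0.70 for Psmd7 and 0.63 for Psmd4, and the base chaperone Psmd10 had 0.90.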

How the results depend on the processing

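With LPS in primary microglia, 22 of the 28 calls held in all 15 alternatives, and the count of genes called higher was 22 to 32, or 26 to 33 with 1 library left out. Psmb1, Psmd3, Psmd8, Psmd12, Psmd13 and Psmf1 lost the call in some. In BV2 cells the count was 1 in every other alternative and 1 to 3 with 1 library left out. The difference of responses gave 11 genes under upper-quartile scaling, and 11 to 20 with 1 library left out. Between the cell types 39 genes were lower, and 27 of these calls held in all 18 alternatives. The count called higher there, 0 in the fit reported, was 1 with no filter and 3 with the length trend taken out, where Psme1 turned round to 0.56 and the median was -0.69, and stayed at 0 with 1 library left out. The causes were not tested. With the replicate number as a block, the counts were 28 higher with LPS in primary microglia, 1 higher in BV2 cells, 20 higher for the difference and 38 lower between cell types. Replicate numbers were treated as names only, without pairing, since correlations of same-numbered deviations were 0.18, -0.08 and 0.19 in primary microglia, and 0.16 in BV2 cells, where only 2 pairs exist. Depths of 2750988 to 3684012 gene counts limit precision for genes at low levels, such as the Psmg genes at 3.75 to 18.2 CPM and Psmc5 at 7.74 to 9.40 CPM in primary cells, and Psma8 and Psmb11 could not be tested.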
